A study of Caenorhabditis elegans with 2 samples.

Results

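LIN-13, which has many zinc fingers, belongs to class B of the synthetic multivulva (synMuv) genes, known in C. elegans for keeping germline genes silent in the soma and for limiting vulval fates. Its binding was mapped by chromatin immunoprecipitation with sequencing (ChIP-seq) in whole L1 larvae, the first larval stage, of the strain OP49. The strain carries the unc119(ed3) mutation and the integrated array wgIs49, which holds lin-13 fused to TY1, EGFP and FLAG tags together with a rescuing copy of unc119. The 2 samples are biological replicates of 1 group of pooled male and female animals of unknown age, so no condition can be compared and no test between samples exists. Tissues are mixed in a whole larva, and the share of cells behind a peak is not known.

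The regions described here are the reproducible peaks on the autosomes that lie inside genes but away from annotated starts. A peak was taken when its summit, the position of highest enrichment within the peak, lay over 500 bp from every 5' end of a protein-coding transcript and of every tRNA, snoRNA and snRNA gene, inside the span of a protein-coding gene, and in no exon of such a gene. This gave 219 of the 1994 autosomal peaks, or 11.0% (95% exact interval 9.64 to 12.4), and 219 of all 2333 reproducible peaks. Each lay in an intron of 1 of 155 host genes, in 170 introns in all. The other autosomal peaks were 1215 promoter peaks (within 500 bp of a protein-coding 5' end), 420 intergenic peaks (in no protein-coding gene), 114 peaks near small RNA genes and 26 exonic peaks. Signal is the authors' score per peak against a control, on a scale the sources do not state. Peak classes were therefore compared only within a list, and scores of the replicates are set side by side as a description.

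Most C. elegans introns are very short, and the few long ones, often the first of a gene, are known to hold enhancers and the starts of shorter transcripts. LIN-13 is known to act with HPL-2, a heterochromatin protein of the HP1 family. The synMuv B class also holds the DREAM complex, which brings E2F and MuvB proteins to promoters. GAGA repeats are known from open chromatin in worms and flies, and the E-box CACGTG is a site of basic helix-loop-helix proteins.

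The windows reaching 100 bp to either side of the summit of 6 of the 7 strongest intronic peaks are given because they show the words that recur among the intronic peaks. All are the plus strand of ce11 (WBcel235), from the RefSeq copy of the assembly. They lie at chrIV:2602056-2602256 in epg-9, chrIII:12612541-12612741 in Y111B2A.12, chrV:6224540-6224740 in W06H8.6, chrII:12778470-12778670 in Y46G5A.34, and chrIII:8795732-8795932 and chrIII:8802046-8802246 in zfp-1. Capitals mark matches, on either strand, to the GAGA word GAGAGAG, the E-box word CACGTG, a T-tract of TTTTTTTT or an E2F-like word, and to TGCGTCTC, a word that was added after these windows had been read.
epg-9: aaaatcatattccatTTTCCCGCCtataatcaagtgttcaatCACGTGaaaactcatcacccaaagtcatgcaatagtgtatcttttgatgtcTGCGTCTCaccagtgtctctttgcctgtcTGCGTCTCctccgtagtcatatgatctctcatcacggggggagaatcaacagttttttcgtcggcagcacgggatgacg
Y111B2A.12: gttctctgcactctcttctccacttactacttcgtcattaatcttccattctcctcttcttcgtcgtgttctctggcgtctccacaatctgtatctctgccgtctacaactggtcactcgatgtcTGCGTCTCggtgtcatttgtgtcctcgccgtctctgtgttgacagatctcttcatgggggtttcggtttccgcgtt
W06H8.6: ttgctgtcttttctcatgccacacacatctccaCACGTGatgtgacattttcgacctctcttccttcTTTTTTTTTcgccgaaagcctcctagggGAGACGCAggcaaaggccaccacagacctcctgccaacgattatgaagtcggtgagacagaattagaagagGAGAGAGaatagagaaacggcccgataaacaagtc
Y46G5A.34: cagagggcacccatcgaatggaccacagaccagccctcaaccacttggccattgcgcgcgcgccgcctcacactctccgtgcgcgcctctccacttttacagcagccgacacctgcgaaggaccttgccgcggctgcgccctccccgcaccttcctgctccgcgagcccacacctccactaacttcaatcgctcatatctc
zfp-1, intron 5: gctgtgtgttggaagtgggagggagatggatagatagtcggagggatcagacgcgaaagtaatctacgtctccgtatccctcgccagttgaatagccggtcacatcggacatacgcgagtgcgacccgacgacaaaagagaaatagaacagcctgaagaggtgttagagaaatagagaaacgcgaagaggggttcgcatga
zfp-1, intron 10: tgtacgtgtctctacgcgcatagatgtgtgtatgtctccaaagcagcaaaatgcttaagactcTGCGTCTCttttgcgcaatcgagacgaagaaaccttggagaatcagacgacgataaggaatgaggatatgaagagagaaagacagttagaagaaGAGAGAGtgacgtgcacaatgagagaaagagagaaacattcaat
TGCGTCTC stands at 2 places in the epg-9 window, and once each in those of Y111B2A.12, W06H8.6 and zfp-1 intron 10. The windows of Y46G5A.34 and zfp-1 intron 5 hold none of the marked words.

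The strongest intronic peak lay in intron 2 of epg-9, an autophagy gene, at chrIV:2602065-2602245, with a pooled signal of 399 and call signals of 187 in replicate 1 and 215 in replicate 2. It ranked 30 among the 2333 reproducible peaks. The peak in intron 4 of Y111B2A.12 had a pooled signal of 392, with 156 in replicate 1 and 234 in replicate 2. The last intron of W06H8.6, intron 5, held a peak with a signal of 361, with 169 and 190 in replicates 1 and 2. These 3 peaks were called high in both replicates, and none of them lay in intron 1 of its host. Intron 2 of Y46G5A.34 held the next, with 345 in the pooled list, 165 in replicate 1 and 182 in replicate 2. In zfp-1, which encodes a PHD finger protein related to AF10, intron 5 held a peak of 320.3 (118 and 198 in the replicates) and intron 10 a peak of 262 (124 and 130). T28F4.1 held a peak of 318 in its first intron, with 138 and 173 in the replicates.

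The other 13 of the 20 strongest peaks had signals of 168 to 259. The signal was 259 in intron 3 of mnk-1, a MAP kinase interacting kinase, 225 in the first intron of T28B11.1 and 213 in intron 2 of nhr-19, a nuclear hormone receptor. The first introns of unc-108, which encodes a RAB2 GTPase, mef-2, a MADS box factor, and daf-14, a SMAD protein of the dauer pathway, held peaks of 209, 182 and 177. A further zfp-1 peak in intron 10 had 192 and one in intron 4 of K11D2.4 had 191. Intron 29 of let-363, the TOR kinase gene, held a peak of 176, with the nearest protein-coding 5' end, of vep-1, 1912 bp away. Intron 7 of pbrm-1, which encodes the polybromo subunit of a SWI/SNF remodeler, held one of 172. Peaks of 179 and 168 lay in intron 15 of pqn-41 and one of 170.5 in intron 4 of Y43F8B.2. At the other end, the 3 weakest peaks had signals of 48.7 in C33B4.4, 48.7 in fkh-7 and 48.9 in nhr-34.

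Among autosomal peaks, the intronic ones were weaker than promoter peaks and near intergenic peaks in strength. Their signal ran from 48.7 to 399 with a median of 73.1, against 84.6 for promoter peaks, 73.8 for intergenic peaks and 79.4 for all autosomal peaks. By construction 50% of autosomal peaks lay above that last median, and 90 of the 219 intronic peaks did (41.1%), against 54.7% of promoter peaks (odds ratio 0.579, adjusted p = 0.000927, Fisher's exact test, 2-sided, Benjamini-Hochberg over 4 tests). Against the 43.8% of intergenic peaks the odds ratio was 0.895 (Fisher's exact test, adjusted p = 0.741). Of the 100 strongest reproducible peaks 6 were intronic and 67 were promoter peaks, and of the 500 strongest 30 and 311. The difference from promoter peaks did not pass with the signals of replicate 2 in place of the pooled signal (odds ratio 0.727, adjusted p = 0.0748, Fisher's exact test), or with replicate 2 alone (0.757, adjusted p = 0.125, exact test).

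Most intronic peaks were called in each replicate's own list. A call lay within 100 bp of 205 of the 219 summits in replicate 1, with signals of 9.67 to 187 and a median of 35.1. In replicate 2 it lay near 214, with signals of 10.2 to 234 and a median of 39.7. Both lists held a call for 200 (91.3%, 86.8 to 94.7), beside 94% of all autosomal peaks and 96.0% of promoter peaks (odds ratio 0.442, adjusted p = 0.0106, Fisher's exact test). Intergenic peaks stood at 90.7% (odds ratio 1.08, adjusted p = 0.885, Fisher's exact test). Matched within 50 bp, 143 of the 219 had a call in both lists, and the share was again lower than at promoter peaks (odds ratio 0.362, adjusted p = 7.07e-09, Fisher's exact test). Within 200 bp 218 of the 219 had one, and the difference did not pass (odds ratio 1.26, adjusted p = 1, exact test). Calls with a q-value under 0.05 in both lists stood at 152 intronic peaks (69.4%), beside 78.1% of all autosomal peaks, 82.4% of promoter peaks and 72.4% of intergenic peaks. These shares were not tested.

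**Figure D1:**
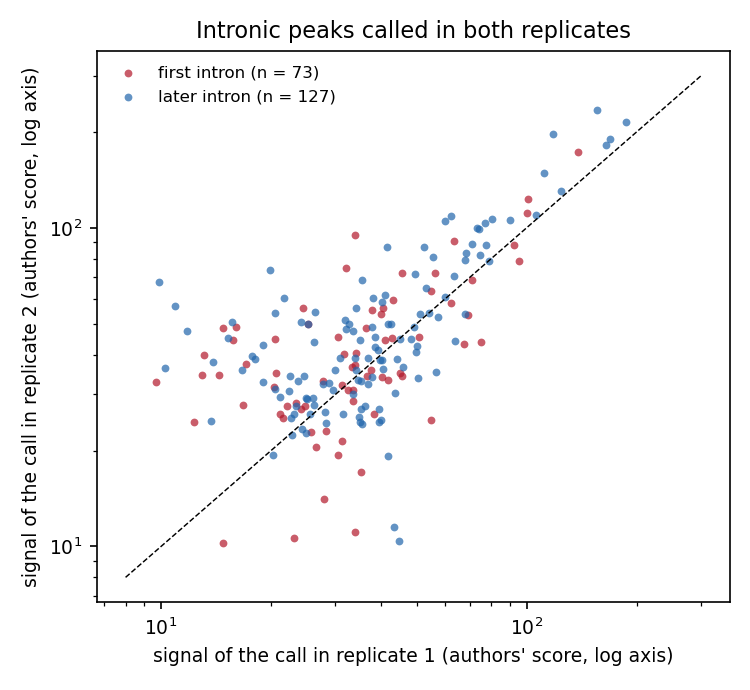
Signal of the call in replicate 1 (x axis) and replicate 2 (y axis), both log axes in the authors' score, for the 200 intronic peaks called in both lists, 73 in first and 127 in later introns. Points on the dashed line have equal scores, and 70 of the 200 lie below it, with the higher score in replicate 1. Whether the lists share a scale is not known, so this count is not a measured difference between replicates.

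Over the 200 peaks called in both, the signals correlated between replicates with a Spearman rho of 0.546 and, on log2 values, a Pearson r of 0.621. These are descriptions, since the same peaks were chosen from both lists. The plot of replicate signals shows the strongest peaks close together near the diagonal, and the spread grows toward low signals. Of the 19 peaks without a call within 100 bp in one list, 14 lacked one in replicate 1 and 5 in replicate 2. Nearly all intronic peaks had a call in both lists when matched within 200 bp. The strongest of the 19 was a peak of 151 in ppfr-1, which had a signal of 94.9 in replicate 2.

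Reproducible peaks were a small share of the calls made at intronic positions. The pooled list, which keeps background as well as peaks, held 6329 calls at positions that meet the rule, of which 219 were reproducible (3.46%, 3.02 to 3.94). The same share was 8.11% for all autosomal calls, 15.9% for promoter calls, 6.05% for intergenic calls and 0.772% for exonic calls, and these were not tested. The 6110 other pooled calls at such positions show where calls fall when they are not reproducible, and are set beside the peaks from here on. Shares were also set beside the eligible bases, the 21.8 Mb of autosomal positions that meet the rule. The p-values treat peaks as independent, although 80 of the 219 shared their intron with another.

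First introns and long introns held more peaks than their length gave. First introns, counted over the gaps between merged exons of the host, held 82 of 219 peaks (37.4%, 31.0 to 44.2) against 15.5% of eligible bases (2.41 times, adjusted p = 9.67e-15, exact binomial test, 2-sided, adjusted over 11 tests). Of the other pooled calls 18.5% lay there. Intron 2 held 14.6% of peaks against 15.2% of bases, intron 3 9.59% against 13.7%, intron 4 6.85% against 12.2%, introns 5 to 9 20.1% against 30.6%, and later introns 11.4% against 12.9%. Median signals in these classes ran from 69.9 to 85.4, with 70.03 in first introns. When the first intron of any transcript of the host was counted, 132 peaks (60.3%) lay in one, against 23.4% of bases and 28.9% of the other pooled calls.

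Introns over 2000 bp held 161 peaks (73.5%, 67.2 to 79.2), against 29.3% of eligible bases (2.51 times, adjusted p = 2.54e-40, exact binomial test) and 35.3% of the other pooled calls. The density of peaks was higher in each longer class of intron. It was 1.24 per Mb of eligible bases in introns up to 500 bp (7 peaks), 4.74 from 500 to 1000 bp (24 peaks) and 5.76 from 1000 to 2000 bp (27 peaks). It was 19.0 from 2000 to 5000 bp (73 peaks), 31.4 from 5000 to 10000 bp (58 peaks) and 42.7 above 10000 bp (30 peaks). Median signals in these classes stayed between 66.3 and 73.7. The median intron with a peak was 3270 bp long, against 67 bp for all 86789 autosomal introns, of which 2.41% are over 2000 bp. Split by both features, first introns over 2000 bp held 36.9 peaks per Mb (28.8 to 46.6), later introns over 2000 bp 20.1 (16.2 to 24.7), first introns up to 2000 bp 7.54 (3.76 to 13.5) and later short ones 3.37 (2.48 to 4.48).

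**Figure D2:**
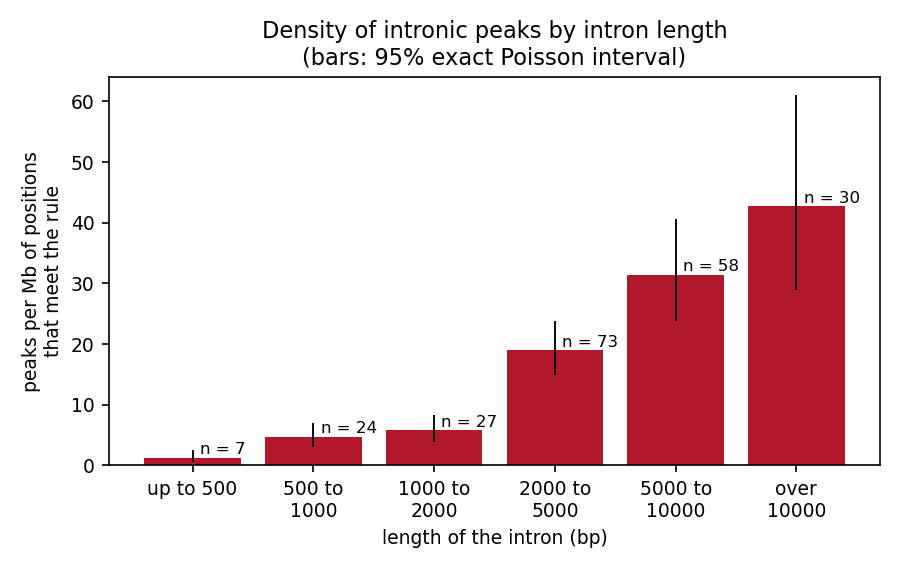
Peaks per Mb of eligible bases (y axis) by the length of the intron in bp (x axis), with the number of peaks over each bar and 95% exact Poisson intervals, which cover counting error only. The density climbs from 1.24 per Mb in introns up to 500 bp to 42.7 per Mb in those over 10000 bp.

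Many peaks lay upstream of an internal start. The nearest protein-coding 5' end was 505 to 20161 bp away, with a median of 1464 bp. This end belonged to the host for 198 of 219 peaks (90.4%), against 78.0% of eligible bases. It lay downstream of the peak for 106 peaks (48.4%, 41.6 to 55.2), while only 27.8% of eligible bases lie upstream of their nearest 5' end. For 91 of the peaks the nearest 5' end lay downstream and also belonged to the host, and the share of bases for this was not counted. Peaks upstream of a more distant start of the host were not counted. A share of 31.5% lay 500 to 1000 bp from a 5' end, against 25.3% of bases (1.24 times, adjusted p = 0.0675, exact binomial test), and with replicate 2 alone this passed (1.32 times, adjusted p = 0.014, exact). The 2 sides of the intron did not differ past the threshold, with 43.4% of peaks closer to the 5' than to the 3' end of their intron, against 48.1% of bases (adjusted p = 0.194, exact binomial test). The 3 peaks just outside the distance limit were 505 bp from a 5' end in jun-1, 514 bp in zfp-1 and 531 bp in skn-1, with signals of 52.2, 87.1 and 76.3. The 3 just inside, in epc-1, daf-5 and K10C3.4, were at 475, 483 and 486 bp, with signals of 65.5, 50.2 and 60.9. Starts of other gene types, left out of the rule, lay within 500 bp of 45 peaks: 33 of ncRNA, 9 of piRNA, 2 of miRNA and 1 of lincRNA genes. The share of eligible bases as near to such starts is not given here, so no excess can be read from this count.

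**Figure D3:**
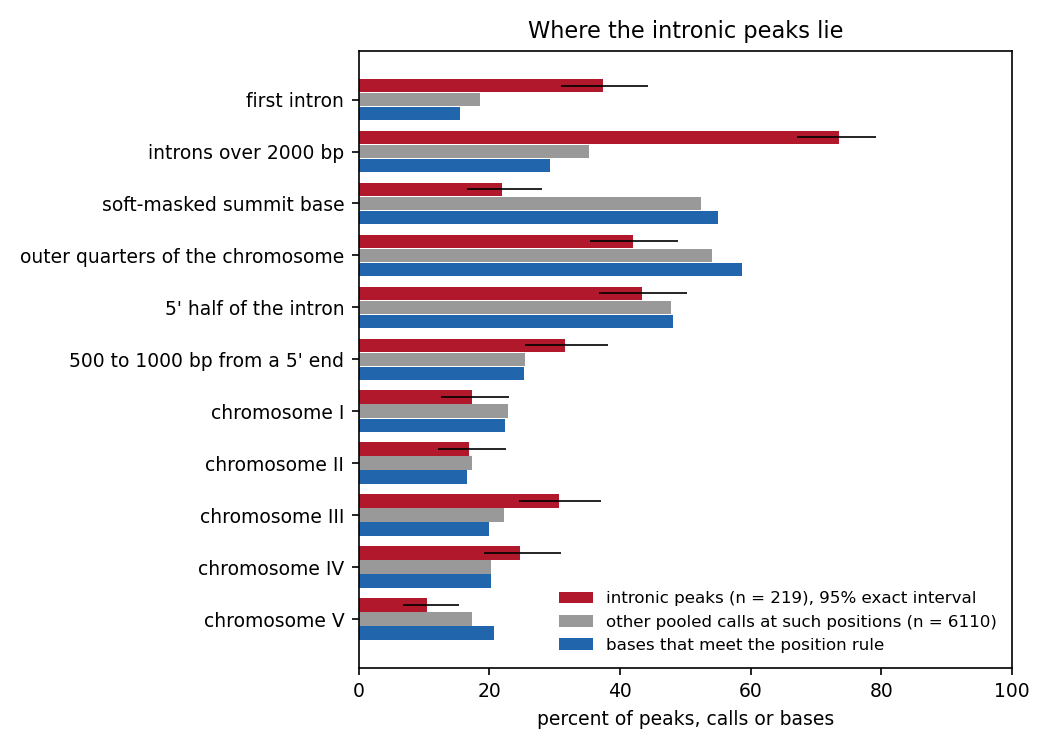
Percent (x axis) of the 219 intronic peaks (red, with 95% exact intervals), of the 6110 other pooled calls at positions meeting the rule (grey) and of eligible bases (blue) with each feature. Red bars stand well above the others for first introns and introns over 2000 bp, and well below them for soft-masked summits.

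Peaks were less frequent on repeats and chromosome arms than eligible bases are. The summit base was soft-masked, the mark of repeats and low-complexity sequence in the assembly, at 48 peaks (21.9%, 16.6 to 28.0), against 55.0% of eligible bases (adjusted p = 1.24e-22, exact binomial test) and 52.5% of the other pooled calls. Over the windows around the summit, 2 peaks had more than 50% of their 24-base words elsewhere in the genome, in klp-6 and nadk-2, against 12.1% of eligible windows. GC content had a median of 45.3% in the peak windows, 33.3% in eligible windows, 40.3% in promoter peaks and 44.3% in intergenic peaks. The part of base composition in the repeat result was not tested. The outer 25% at either end of the chromosomes held 42.0% of peaks against 58.7% of bases (adjusted p = 2.43e-06, exact binomial test), beside 42.1% of promoter peaks and 44.3% of intergenic peaks.

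Chromosome III held 67 peaks (30.6% against 19.9% of bases, adjusted p = 0.00032, exact binomial test) and chromosome V 23 (10.5% against 20.8%, adjusted p = 0.000176, exact binomial test). The shares of the other autosomes did not pass: 38 peaks on chromosome I (17.4% against 22.5%, adjusted p = 0.103, exact), 37 on chromosome II (16.9% against 16.6%, adjusted p = 0.928, exact) and 54 on chromosome IV (24.7% against 20.3%, adjusted p = 0.135, exact). The lower share on chromosome I passed at a limit of 1000 bp (0.597 times the share of bases, adjusted p = 0.00844, exact), without noncoding exons (0.694, adjusted p = 0.0295, exact) and with 5' ends of every biotype (0.605, adjusted p = 0.00493, exact). Promoter peaks were spread over chromosomes I to V as 23.2%, 19.3%, 22.2%, 17.6% and 17.6%.

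The GAGA, E-box and added words recurred across the intronic peaks. GAGAGAG, read on either strand within 100 bp of the summit, stood in 83 of 219 windows (37.9%, 31.4 to 44.7), in 2.37% of the 108478 eligible windows of that length and in 14.1% of promoter peaks. The odds ratio was 25.2 against eligible windows (adjusted p = 1.47e-73, Fisher's exact test over 14 tests) and 3.73 against promoter peaks (adjusted p = 2.28e-14, Fisher's exact test). Of the other pooled calls 4.88% held it. The share in intergenic peaks was 37.9% as well, or 159 of 420. CACGTG stood in 35 windows (16.0%, 11.4 to 21.5), against 2.91% of eligible windows (odds ratio 6.35, adjusted p = 2.11e-15, Fisher's exact test) and 5.84% of promoter peaks (odds ratio 3.06, adjusted p = 3.51e-06, Fisher's exact test). It stood in 12.6% of intergenic peaks and 3.40% of the other pooled calls.

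Base composition moved with these words. Within windows of 40.3 to 49.8% GC, the range between the lower and upper quartile of the intronic peaks, GAGAGAG stood in 41.4% of 116 intronic peaks, 5.60% of eligible windows and 19.5% of promoter peaks. CACGTG stood in 18.1%, 5.85% and 6.24% of the same sets. TGCGTCTC, the word added after the windows had been read, stood in 46 of 219 windows (21.0%), 1.14% of eligible windows, 12.8% of promoter peaks and 23.6% of intergenic peaks, and is given without a test for that reason. At least 1 of the 3 words stood in 128 intronic peaks (58.4%), 27.7% of promoter peaks, 55.2% of intergenic peaks and 5.87% of eligible windows. This combined share includes the added word, chosen from windows of these same peaks, so it is a description only. Of the intronic peaks 10 held both GAGAGAG and CACGTG.

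**Figure D4:**
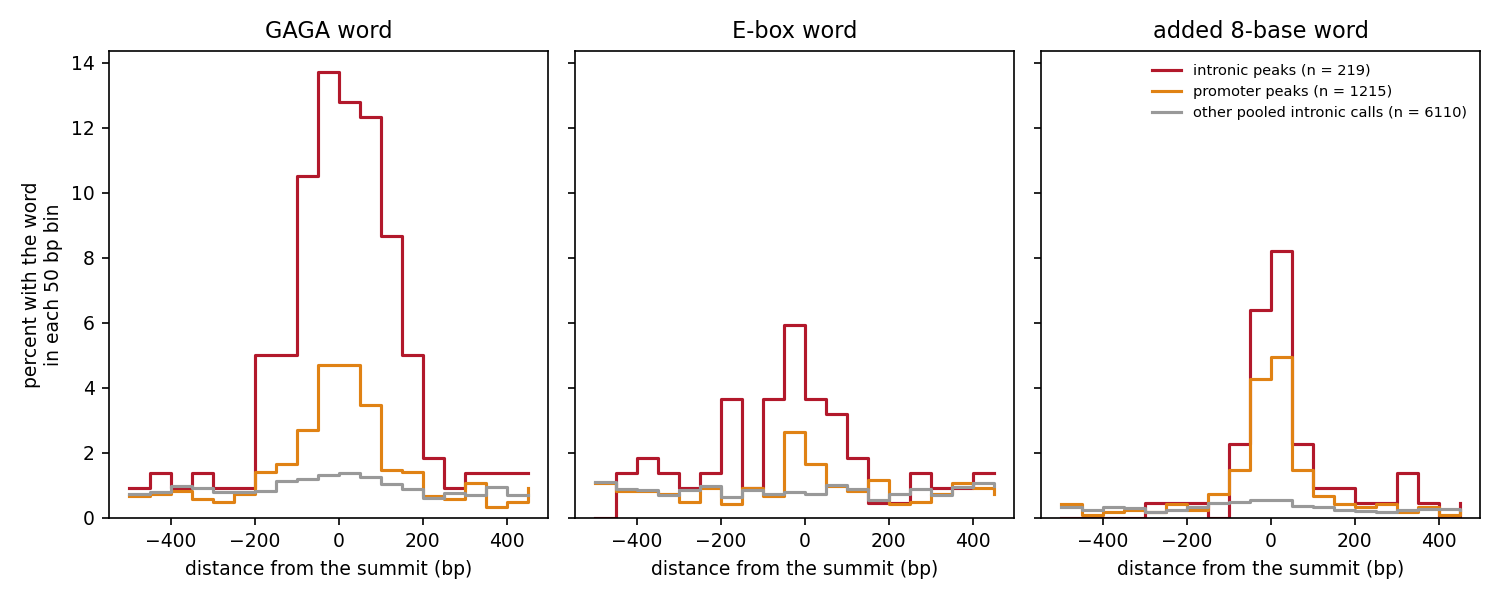
Percent of intronic peaks (red), promoter peaks (orange) and other pooled intronic calls (grey) with the GAGA word, the E-box word or the added word in each 50 bp bin (y axis) by the distance of the bin from the summit in bp (x axis). Among intronic peaks the GAGA word is in 13.7% and 12.8% of the bins beside the summit and near 1% beyond 300 bp.

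GAGAGAG was spread over about 200 bp on either side of the intronic summits, and TGCGTCTC gathered closer to them. In the 50 bp before and after the summit GAGAGAG stood in 13.7% and 12.8% of intronic peaks and in 4.69% and 4.69% of promoter peaks. TGCGTCTC stood there in 6.39% and 8.22% of intronic peaks and in 4.28% and 4.94% of promoter peaks. CACGTG stood there in 5.94% and 3.65% of intronic peaks, and in 3.65% both at 50 to 100 and at 150 to 200 bp before the summit. Intronic peaks with GAGAGAG had a median signal of 80.0, against 70.03 without it, and 45.8% against 32.4% of them lay in first introns. Those with CACGTG had a median of 75.3, against 71.3 without it.

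E2F-like words were more frequent than in eligible windows, and the CHR was less frequent than at promoters. E2F-like words (TTCCCGCC, TTTCCCGC, TTCGCGCC, TTGGCGCC or TTCCCGCG) stood in 16 intronic peaks (7.31%), against 2.93% of eligible windows (odds ratio 2.61, adjusted p = 0.00147, Fisher's exact test) and 8.23% of promoter peaks (odds ratio 0.879, adjusted p = 0.788, Fisher's exact test). The difference from eligible windows did not pass with replicate 1 alone (odds ratio 1.86, adjusted p = 0.0704, Fisher's exact test) or in windows of 50 bp to either side (2.25, adjusted p = 0.0538, exact test). The CHR, TTTGAA or TTCGAA, which MuvB proteins read, stood in 67 (30.6%), fewer than the 54.5% of promoter peaks (odds ratio 0.368, adjusted p = 1.5e-10, Fisher's exact test) and the 60.3% of eligible windows (odds ratio 0.290, adjusted p = 6.2e-18, Fisher's exact test). Within the same GC range the CHR stood in 32.8% of intronic peaks and 37.6% of eligible windows, which did not pass (odds ratio 0.809, adjusted p = 0.523, Fisher's exact test). TTTTTTTT was likewise rarer (11.0% against 32.0% of eligible windows, adjusted p = 1.1e-12, Fisher's exact test), and in that GC range stood at 12.1% and 11.5% (odds ratio 1.06, adjusted p = 0.9, exact test). The GC-box CCGCCC stood in 11 peaks (5.02%), beside 9.88% of promoter peaks (odds ratio 0.483, adjusted p = 0.0306, Fisher's exact test). This did not pass under 9 alternatives, among them each replicate alone, 1 summit per intron and both other window lengths, with odds ratios of 0.495 to 0.834. AGATAA, the GATA word, stood in 21 (9.59%) against 10.7% of eligible windows (adjusted p = 0.788, Fisher's exact test). Intergenic peaks held E2F-like words in 6.43%, the CHR in 38.3%, TTTTTTTT in 10.2%, the GC-box in 10.2% and AGATAA in 6.67%. Differences from these intergenic shares were not tested.

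Several hosts carried clusters of peaks. Of the 155 hosts 34 held 2 or more, together 98 peaks, and 13 held 3 or more. A neighbour lay within 1000 bp of 38 peaks, so that some overlap and are not separate measurements. The gene pqn-41, which encodes a glutamine-rich protein, held 9 peaks over 16.8 kb in 5 introns, with signals of 54.1 to 179 and a median of 110.4, and all 9 had a call in each replicate. The 4 in intron 15, which is 7770 bp long, had signals of 131, 153, 168 and 179, and stood above the 5 others at 54.1 to 110.4. ppfr-1, a regulatory subunit of protein phosphatase 4, held 7 peaks over 3.56 kb in introns 6 and 7, with signals of 56.0 to 166. Replicate 1 had a call within 100 bp of 5 of the 7. In zfp-1 6 peaks lay over 7.22 kb in introns 5 and 10, with signals of 58.9 to 320.3, all called in both replicates and all in the first intron of some transcript.

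**Figure D5:**
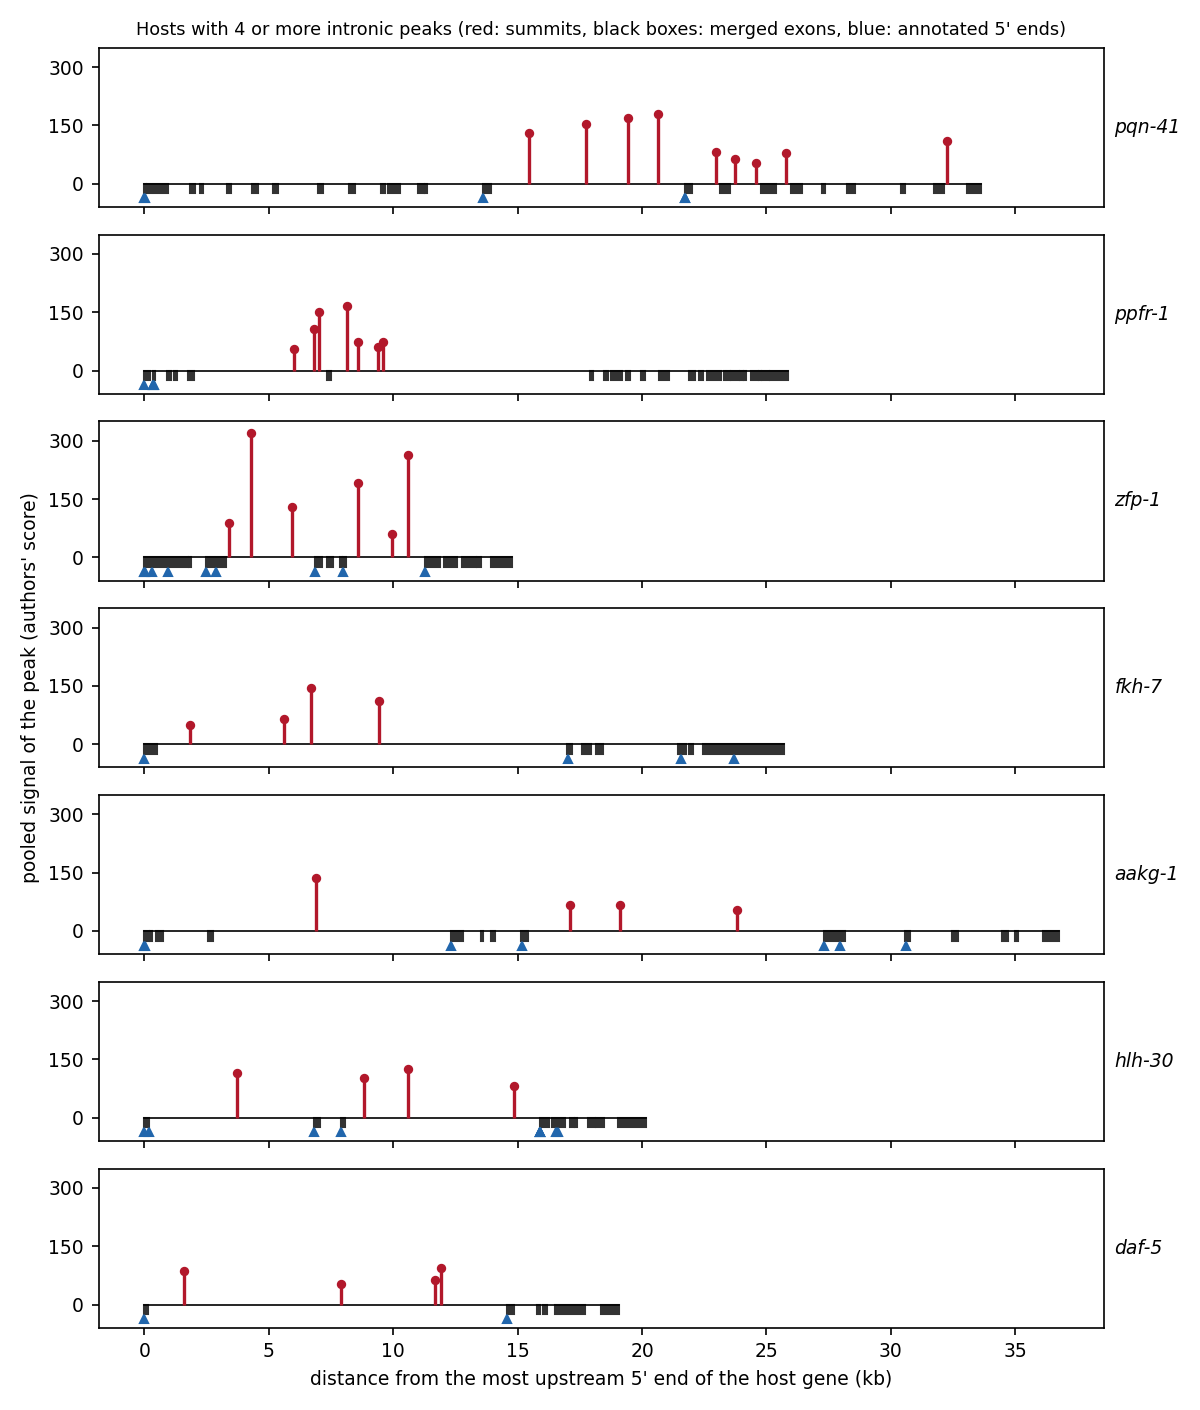
Pooled signal (y axis, authors' score) of each intronic peak by its distance in kb from the most upstream 5' end of the host (x axis), for the 7 hosts with 4 or more peaks. Black boxes are merged exons and blue triangles annotated 5' ends. Peaks of zfp-1 stand between internal starts, while those of ppfr-1 stand downstream of all of its starts.

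4 hosts held 4 peaks each. In fkh-7, a forkhead gene, they lay in the first intron of 16465 bp with signals of 48.7 to 146. In aakg-1, the gamma subunit of AMP-activated kinase, they lay over 16.9 kb with signals of 54.2 to 137. Replicate 1 had a call within 100 bp of 2 of the 4. In hlh-30, which encodes the TFEB-related factor of autophagy and lysosome genes, the signals were 80.5, 102, 114 and 126, all called in both replicates. In daf-5, a Ski-related partner of SMAD proteins, they were 53.3 to 92.8, and 2 of the 4 lacked a call within 100 bp in one list. One of these was the strongest, with 15.9 in replicate 1 and no call within 100 bp in replicate 2. Hosts with 3 peaks were Y111B2A.12, T28B11.1, nhr-19, the elongation factor gene ell-1 (75.1 to 130.3), ncl-1, which limits nucleolar size (52.9 to 89.6), and pkg-2, a cGMP-dependent kinase (60.8 to 79.8). W06H8.6, epg-9 and mnk-1 each held a second, weaker peak, at 55.9, 77.9 and 66.3.

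The share of peaks with a word differed among these clusters. All 4 peaks of aakg-1 and all 4 of daf-5 held the GAGA, the E-box or the added word, as did 4 of the 6 in zfp-1. Of the 9 in pqn-41 2 held one, of the 7 in ppfr-1 1, and of the 3 in pkg-2 none. The other hosts with 3 or more peaks lay between. Y111B2A.12 and nhr-19 had a word at 3 of 3, hlh-30 at 3 of 4 and fkh-7 at 2 of 4. T28B11.1 and ell-1 had one at 2 of 3, and ncl-1 at 1 of 3. Over all intronic peaks the share was 58.4%. These counts are small, include the added word and were not tested.

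Some hosts also had a peak at their own promoter. Of the 155 hosts 36 did (23.2%, 16.8 to 30.7), beside 8.85% of the 14314 autosomal genes with eligible bases. Hosts were longer, with a median of 10393 bp against 2311 bp. Among the 1963 genes at least as long as the lower quartile of hosts, 14.5% (12.9 to 16.1) had a promoter peak. A list of genes is described here by its counts and was not tested. Of the 34 hosts with 2 or more peaks 11 had one.

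Regulators of transcription were among the hosts. As a background, 155 of the 14314 genes with eligible bases (1.08%) were hosts. Over all 17 gene lists together 35 of 3397 genes were (1.03%), with 24.7% of peaks against 23.8% of bases. None of the 66 homeobox genes was a host. Of 147 further transcription factor genes 10 were hosts (6.80%), with 17 peaks, or 7.76% of all against 1.95% of eligible bases, and a median signal of 102. The strongest were in mef-2, daf-14, fkh-7 and hlh-30. Others were klf-1 with 124, skn-1, the Nrf-related stress factor, with 109.9 and 76.3, daf-16, the FOXO factor of insulin signalling, with 80.0, and lag-1, the CSL factor of Notch signalling, with 76.3. Nuclear hormone receptors gave 7 hosts of 245 and 11 peaks, 5.02% against 1.22% of bases. After nhr-19 with 213 the strongest were 94.1 in nhr-85, 72.6 in nhr-31 and 69.05 in nhr-21.

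Chromatin genes outside the synMuv list gave 4 hosts of 105 and 10 peaks (4.57% against 1.16% of bases), of which 6 were in zfp-1. pbrm-1 had 1 and let-526, the ARID1-type subunit of SWI/SNF, had 2 with 103 and 103, and set-18 had 1 with 61.8. The synMuv and DREAM list gave 2 hosts of 40, with 0.913% of peaks against 0.503% of bases. They were gei-4 with a first-intron peak of 112 and egl-27, which encodes an MTA-type protein, with 52.2 in intron 5. Replicates 1 and 2 had 33.9 and 95.3 for the gei-4 peak and 16.7 and 35.7 for that of egl-27. lin-13 itself held no intronic peak of this kind.

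Signalling genes gave 4 hosts of 130, with 2.28% of peaks against 1.63% of eligible bases. Their peaks were 94.9 in mpk-1, the ERK kinase, and 72.4 in lit-1, a Nemo-like kinase. Those in daf-2, the insulin receptor, were 70.02 and 67.2, and that in tpa-1, a protein kinase C, was 50.7. Matched at 100 bp, mpk-1 was among the peaks that replicate 1 lacked, while its signal in replicate 2 was 60.0. Synaptic genes gave 5 hosts of 67, with 2.28% of peaks against 1.53% of bases. They were unc-108, rab-3 with 78.4, ida-1 with 71.1, unc-43, the CaM kinase II gene, with 51.5, and unc-119 with 49.97. The unc-119 peak is in its first intron, with 26.6 in replicate 1 and 20.6 in replicate 2. Reads there can come from the genomic gene or from the copy on the transgene, and these sources cannot be told apart. The array also holds lin-13, so the same limit applies to peaks near lin-13, as far as the array covers that region. Without peaks within 20 kb of either gene, 215 of the 219 intronic peaks were left, with 63 in place of 67 on chromosome III. Adhesion and axon guidance genes gave 2 hosts of 82, with 1.37% of peaks, fewer than their 2.63% of bases. These were hmr-1, a classical cadherin gene, with 100.7 and 60.9 in intron 21, and vab-10, a spectraplakin gene, with 56.1. The RNA-binding list gave 1 host of 102, larp-1 with 147, and the cell cycle list 1 of 112, par-1 with 96.7. Each of these 2 lists held 0.457% of peaks, below its 0.744% and 0.806% of bases.

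Other lists gave none. No peak lay in the 223 ion channel genes, which hold 3.16% of eligible bases, the 1291 chemoreceptor genes (3.62%), the 82 receptors for transmitters and peptides (1.32%) or the 434 C-type lectin and F-box genes (1.27%). None lay in homeobox genes (0.726%), muscle structure genes (0.784%), genes for ribosomes, translation, splicing and the proteasome (0.728%) or cuticle collagens (0.261%). A count of 0 of 219 peaks allows a share of up to 1.37%, for counting error only.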

How the data were processed

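ChIP-seq peak lists of 2 biological replicates of LIN-13::TY1 EGFP FLAG in L1 larvae were used in the ce11 build. Per the deposited descriptions of the files, calls were made on each replicate and on both pooled, 30000 per list with background kept, and the lists were joined into an optimal set by their irreproducible discovery rate (IDR). The deposited score of each call is the authors' signal against a control, on a scale not stated. The deposited −log10 q-value was used only to count calls with q under 0.05. Neither the aligner nor the peak caller, the IDR threshold or the depth is given in the sources used here, and controls were not analysed here. With the depth unknown, signal strength cannot be tied to a number of reads, and intervals cover counting error only. Whether the biological replicates came from separate cultures is not stated.

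Peaks were classified by summit against Ensembl release 115 (WBcel235), with 29304 protein-coding 5' ends and 1087 small RNA 5' ends. Introns are gaps between the merged exons of a host, and the shortest was taken where several overlap. Shares were tested by exact binomial tests against every eligible base (11 tests) and by Fisher's exact tests between peak classes (4 tests) and for sequence words (14 tests), each family adjusted by the Benjamini-Hochberg method at 0.05. The tests were checked on simulated peaks drawn independently of each other, so the check does not cover peaks that share an intron. Peaks are the units, so p-values describe these peaks and not the spread between animals. The members, the 17 gene lists and the tests were chosen with earlier results of these data known. Named hosts are those of the 20 strongest and 3 weakest peaks, up to 15 with most peaks, up to 4 per gene list with the strongest peaks, synMuv or DREAM hosts, unc-119 and lin-13. klp-6, nadk-2, the genes at the distance limit and those beyond 4 in the transcription factor list (klf-1, skn-1, daf-16, lag-1) were named outside this rule after their values were seen. Alternatives were each replicate alone, the stronger part of the set, other distances, annotation rules, windows, matching distances and thinning to 1 peak per intron. Peaks within 20 kb of lin-13 or unc-119, and peaks in soft-masked windows, were also left out in turn. Chosen after seeing the data were the word TGCGTCTC, the GC range, the comparison with other pooled calls and the first intron of any transcript. Python 3.11.15, numpy 2.4.6, pandas 2.3.3, scipy 1.17.1 and matplotlib 3.10.9 were used.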

Additional observations from a re-analysis of the deposited data

How the results depend on the processing

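Excess in first introns and in introns over 2000 bp, and the deficits on soft-masked bases and chromosome arms, kept their direction and passed under every alternative that gave a value: 1.93 to 3.26 times, 1.69 to 3.44 times, 0.364 to 0.451 times and 0.657 to 0.776 times the share of bases or other calls. Chromosomes III and V did so too (1.38 to 1.71 and 0.428 to 0.631 times), as did GAGAGAG and CACGTG against eligible windows (odds ratios 11.9 to 36.1 and 3.56 to 8.29) and promoter peaks (2.92 to 5.11 and 2.48 to 4.19). Intronic peaks made up 9.03% of autosomal peaks in the stronger part of the set, 8.95% with 1 summit per intron, 13.4% and 7.52% at limits of 250 and 1000 bp, and 8.73% with 5' ends of every biotype; hosts with a promoter peak made up 16.3% and 34.6% at 250 and 1000 bp. In place of 2 autosomes, 4 passed without noncoding exons, and 3 at 1000 bp and with all 5' ends; chromosome I was among them (0.694, 0.597 and 0.605).

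Lower strength than promoter peaks no longer passed in the stronger part (odds ratio 0.600) or with the signals of replicate 2 (0.727); each replicate alone gave 0.488 to 0.757. A call in both replicates against promoter peaks no longer passed in the stronger part (0.309), without soft-masked windows (0.490) or with all 5' ends (0.480), and turned to 1.26 when matched within 200 bp, where 218 of 219 had one; within 50 bp it passed (0.362). Positions 500 to 1000 bp from a 5' end passed with 1 summit per intron (1.35), without noncoding exons (1.27) and with all 5' ends (1.28), with 1.15 to 1.32 for each replicate alone, of which 1.32 passed; the 5' side of the intron passed with all 5' ends (0.822). The cause of these changes was not tested.

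Comparisons that did not pass turned direction as follows. Strength against intergenic peaks was 1.02 at 1000 bp and 0.933 to 1.03 for each replicate alone. Calls in both against intergenic peaks were 0.921 when matched within 50 bp, and 0.892 and 0.888 at limits of 250 and 1000 bp. Chromosome II was 0.870 in the stronger part, 0.948 at 1000 bp, 0.973 against other pooled calls and 0.987 to 1.08 for each replicate alone. GATA words against promoter peaks were 0.536 in the stronger part, 0.855 with 1 summit per intron and 0.768 in windows of 150 bp to either side. In windows of the peaks' GC content the GC-box was 0.577 and GATA 1.19 against eligible windows.

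Other words passed in the main comparison and lost it elsewhere. T-tracts against eligible windows (0.261) turned to 1.06 in windows of the peaks' GC content. Against promoter peaks (0.596) they turned to 1.04 there and to 1.28 with 50 bp to either side, and did not pass under most other alternatives. The CHR against eligible windows did not pass in the GC range (0.809), nor E2F-like words with replicate 1 alone (1.86) or 50 bp to either side (2.25), nor the GC-box against promoter peaks under 9 alternatives (0.495 to 0.834). No paired analysis was possible because there is 1 group. Without read depth, how many weaker intronic peaks were missed cannot be stated.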
